A study of Mus musculus with 72 samples.

Results

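Pou5f1 (OCT4), Sox2, Sall4, Utf1, Dppa4, Dppa2 and Rif1 are 7 mouse genes that mark pluripotent cells in general, rather than the naive or the primed state alone. They were chosen by name, and are 7 of 45321 genes with a matched transcript; all 7 passed the filter on low counts. Each was followed as messenger RNA in embryonic stem cells with and without Nup133, a subunit of the Y-complex of the nuclear pore, before (day 0) and during (days 2 and 3) differentiation towards neuroectoderm. Control samples were HM1 (Nup133+/+, 40 chromosomes, XY) in 2 biological replicates, and 1A4 (Nup133+/+, Sox1gfp/+, 40 chromosomes, XY), a line derived from a blastocyst. Knockout samples were lines 14 and 19 (Nup133-/-, XY, both made from HM1 by CRISPR/Cas9, with 40 chromosomes and, for line 19, "likely" 40) and line 319 (Nup133merm/merm, Sox1gfp/+, blastocyst-derived, 42 chromosomes, XX with an extra chromosome 8 and 12). Day 0 cells were collected from serum and LIF medium after inactivated fibroblast feeders had been removed. For day 2 the cells were moved to N2B27, a serum-free medium, and for day 3 they were given all-trans retinoic acid from day 2 on. No day 3 sample went without retinoic acid, so its effect and that of a further day of differentiation cannot be told apart. Genotype and day thus make 6 groups, with 3 samples in each. The 3 knockout samples are 3 separate lines, whereas 2 of the 3 control samples come from 1 line, and the same line was followed over the 3 days, so p-values measure the spread between these samples.

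OCT4 is a POU-domain factor and SOX2 an HMG-box factor, and the pair bind next to each other at composite octamer and SOX elements in the enhancers of many embryonic stem cell genes, their own included. SALL4 is a zinc finger protein that binds AT-rich DNA and recruits the NuRD histone deacetylase complex, and UTF1 is a chromatin-bound protein whose gene is itself an OCT4 and SOX2 target. DPPA2 and DPPA4 are SAP-domain proteins that work as a pair and keep the promoters of early embryonic and bivalent genes accessible, and RIF1 controls the timing of DNA replication and protects DNA ends. OCT4 is lost as cells leave pluripotency, while SOX2 is kept in neural progenitors.

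The samples were checked before the genes were read. Nup133 lay between 179.5 and 323.4 CPM (TMM-scaled counts relative to library size) in the 9 control samples and between 14.3 and 37.1 CPM in the 9 knockout samples. Counts summed over genes ranged from 16466730 to 54386782 per sample. The day 2 sample of line 19 stood apart: the transcript Gm42418 took 10.123% of its counts, against 0.07% to 1.477% in the 17 other samples. In that sample the difference from the day 2 controls also fell with transcript length (Spearman -0.643 across genes, which are not independent), where the other samples had values between -0.277 and 0.228. Where a call, a direction or the size of a member's change depended on it, the value without it is also given. In bulk samples such as these, fewer cells of a type and less RNA per cell cannot be told apart.

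The genes sit on 5 chromosomes of GRCm38. Pou5f1 (ENSMUST00000025271, 5 exons) is at chr17:35506018-35510772 on the plus strand, and Gm19553 overlaps its exons on the opposite strand at no more than 0.905 CPM. Sox2 (ENSMUST00000099151, 1 exon) is at chr3:34650405-34652461 on the plus strand, within Sox2ot on the same strand but with no shared exon, and Sox2ot was at 0.512 to 4.085 CPM. Sall4 (ENSMUST00000029061, 4 exons) is at chr2:168748332-168767201 on the minus strand, with Gm14261 over its exons on the opposite strand at no more than 0.754 CPM. Utf1 (ENSMUST00000168457, 2 exons) is at chr7:139943789-139945112 on the plus strand. Dppa4 (ENSMUST00000096045, 7 exons, chr16:48283735-48294237) and Dppa2 (ENSMUST00000097175, 7 exons, chr16:48310477-48319723) are neighbours on the plus strand. Rif1 (ENSMUST00000112693, 36 exons, chr2:52072832-52122383, plus strand) has by far the longest transcript of the 7, with 8509 bases.

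Promoter sequences from RefSeq (GRCm38.p6, 250 bases before to 50 bases after a start site) were at hand for 3 of the 7 genes. These 3 genes are shown, of which Pou5f1 and Utf1 had the largest falls from day 2 to day 3 and Sox2 was the member called between genotypes. Capitals mark the letters searched, on either strand: the octamer ATGCAAAT, the SOX core ACAATG, the nuclear receptor core AGGTCA, the GC box GGGCGG and the CCAAT box CCAAT. The Pou5f1 promoter is chr17:35505782-35506081, that of Sox2 is chr3:34649745-34650044 and that of Utf1 is chr7:139943606-139943905, all on the plus strand.
Pou5f1: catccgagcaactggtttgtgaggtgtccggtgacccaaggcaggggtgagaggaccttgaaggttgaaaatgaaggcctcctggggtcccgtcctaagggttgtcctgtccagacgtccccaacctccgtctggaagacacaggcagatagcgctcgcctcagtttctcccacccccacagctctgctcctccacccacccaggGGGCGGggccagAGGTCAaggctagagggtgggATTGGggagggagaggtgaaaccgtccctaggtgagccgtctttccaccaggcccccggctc
Sox2: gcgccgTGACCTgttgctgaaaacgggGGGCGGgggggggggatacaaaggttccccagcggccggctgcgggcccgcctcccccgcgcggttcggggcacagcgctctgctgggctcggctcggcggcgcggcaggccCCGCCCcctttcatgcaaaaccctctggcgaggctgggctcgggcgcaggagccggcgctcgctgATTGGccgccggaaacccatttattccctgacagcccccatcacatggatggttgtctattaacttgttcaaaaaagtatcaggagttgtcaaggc
Utf1: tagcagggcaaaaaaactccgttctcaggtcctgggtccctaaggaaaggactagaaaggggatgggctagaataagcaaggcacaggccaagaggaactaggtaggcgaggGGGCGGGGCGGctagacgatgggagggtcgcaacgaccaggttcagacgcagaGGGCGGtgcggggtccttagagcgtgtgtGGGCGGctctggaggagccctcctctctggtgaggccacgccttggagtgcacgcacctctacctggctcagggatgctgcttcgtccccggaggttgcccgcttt

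The Pou5f1 promoter holds a GC box at -45 to -40 from the start site, then AGGTCA at -33 to -28, then a CCAAT box on the minus strand at -12 to -8. The Sox2 promoter has AGGTCA on the minus strand at -244 to -239, GC boxes at -223 to -218 and, on the minus strand, at -111 to -106, and a CCAAT box on the minus strand at -46 to -42. In the Utf1 promoter the GC box occurs 4 times, of which 2 overlap by a base. Among 32851 promoter windows of this length, GGGCGG was found in 35.66%, CCAAT in 37.41%, AGGTCA in 16.26%, ACAATG in 12.57% and ATGCAAAT in 1.74%. The octamer and the SOX core were not found in these 3 windows, which says nothing about the enhancers outside them. Positions count from the RefSeq start sites, which differ from the starts of the transcripts counted here, and a second RefSeq start site inside Pou5f1 is not shown.

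All 7 genes were called lower in at least 1 step in the controls. In the controls Sox2, Sall4 and Dppa2 fell between day 0 and day 2, and Pou5f1, Utf1, Dppa4, Rif1 and again Sall4 fell between day 2 and day 3 (edgeR quasi-likelihood test, adjusted p below 0.05, called from here on). Those are 3 of 7 and 5 of 7 genes. Over all 18273 genes tested, 35.2% were called in the first step (15.5% lower) and 21.4% in the second (8.92% lower). The median log2 change of the 7 genes was -0.65 in the first step and -1.11 in the second, where that of all genes was 0.01 and 0.00. In the knockout lines the same 3 genes fell in the first step (35.9% of all genes called, 15.1% lower), with a median of -0.59 over the 7. Fitted on the knockout samples alone, Sox2 was still called there (-0.93, adjusted p = 0.016), and Sall4 (-0.58, adjusted p = 0.075) and Dppa2 (-1.28, adjusted p = 0.056; edgeR) were not. In the second step Pou5f1, Utf1, Dppa4, Sox2 and Sall4 fell (33.6% of all genes called, 16% lower), with a median of -0.99. The difference between the first and the second step was not tested for any gene.

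Scaling by library size alone raised the median of all genes by 0.181 in the first control step, by 0.137 in the second and by 0.227 in the second knockout step. The share of called genes that were higher then went from 55.9% to 70.9%, from 58.4% to 72.8% and from 52.5% to 73.8%. The calls of members that this scaling ended are named beside each gene.

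**Figure D1:**
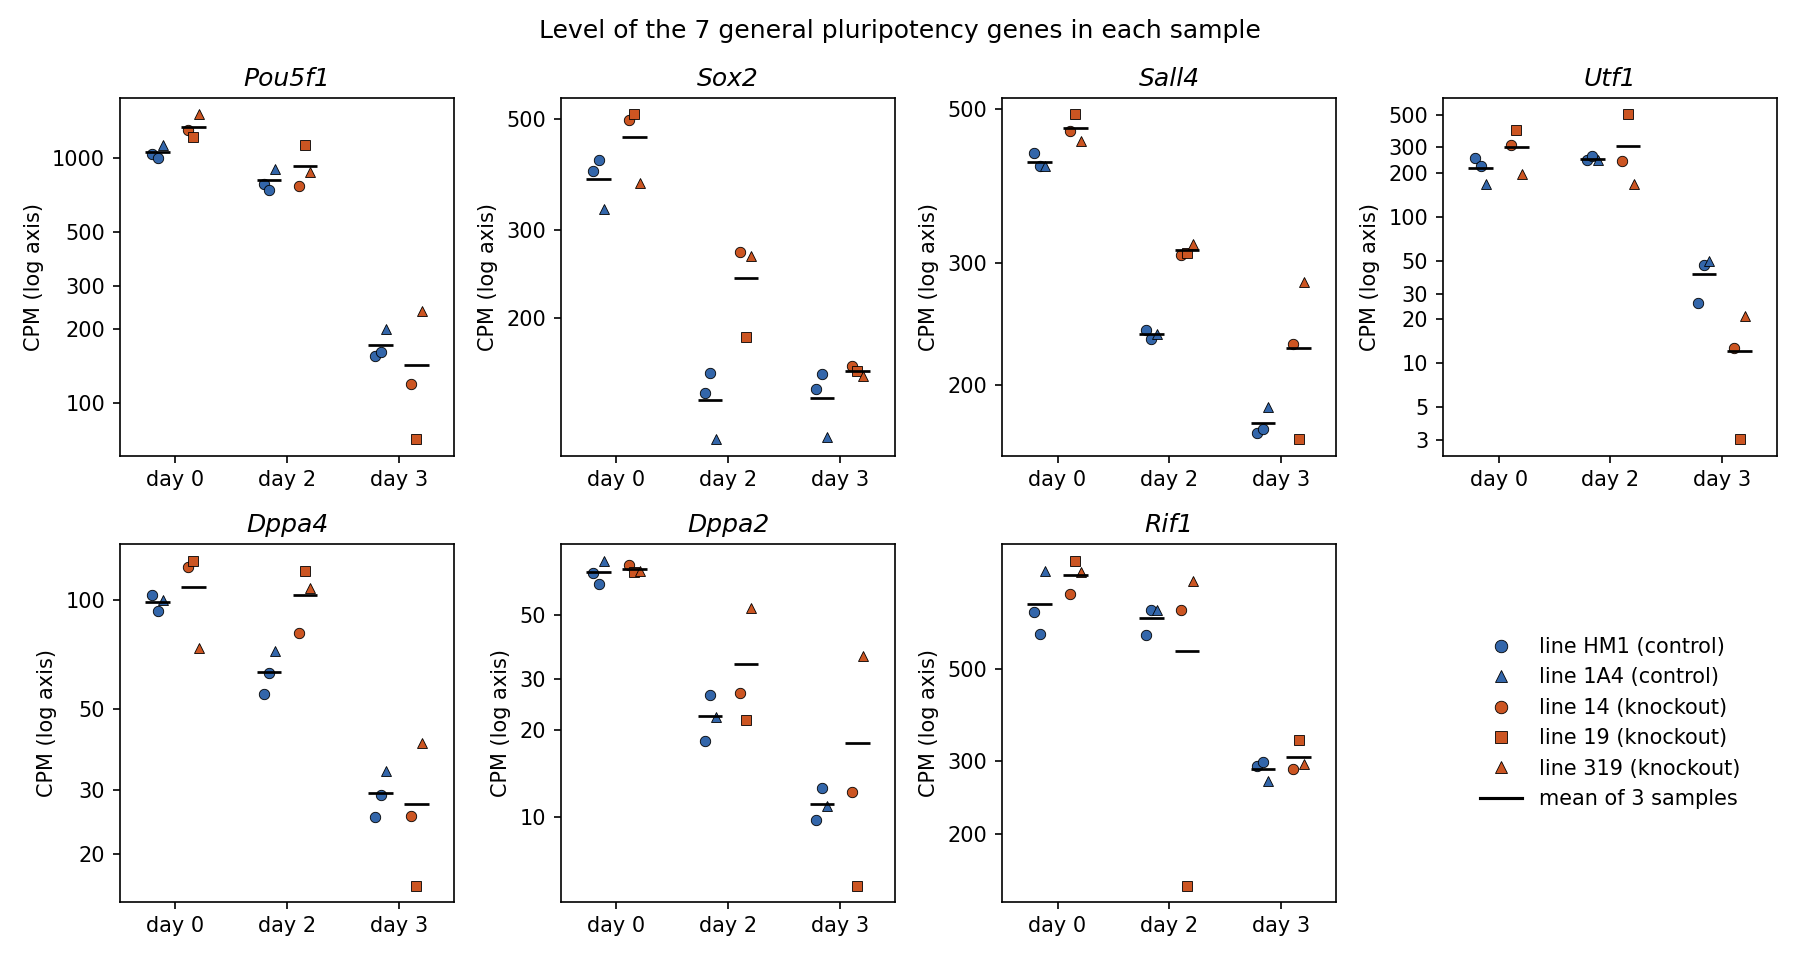
Level of each gene in CPM (log axis, a separate scale per gene) in the 18 samples, by day; blue points are control samples, orange points knockout samples, shapes mark the line, and bars are means of 3 samples. Pou5f1 and Utf1 stay high at day 2 and drop at day 3, while the control samples of Sox2 are already at their day 3 level on day 2.

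Knockout and control samples were compared first at day 0. No member was called there (0.854% of all genes were). The fitted differences lay between 0.06 (Dppa2) and 0.48 (Utf1) on the log2 scale, with a median of 0.24 against 0.01 for all genes. The confidence interval of Utf1 ran from -0.58 to 1.54, so the lack of a call does not show that its difference was small. All knockout samples lay above all controls for Pou5f1 and Sall4, and the ranges of the other members overlapped. At day 2 Sox2 was higher in the knockout and was the 1 member called (1.6% of all genes called), and the median of the 7 was 0.40 against 0.02. At day 3 none was called (5.19% of all genes called) and the median was 0.10 against 0.02, with Utf1 at -1.73 and Dppa2 at 0.51 as the extremes. At an unadjusted p below 0.05 there were 0 members at day 0 and 2 at day 3, Utf1 and Sall4. DESeq2 and limma-voom each called 0 at day 0 and 1, Utf1, at day 3. None of the 7 was called for a change of the genotype difference between days, where 0.0219% (day 0 to day 2), 0.0383% (day 2 to day 3) and 0.427% (day 0 to day 3) of all genes were. At an unadjusted p below 0.05 there were 1, 3 and 1 members in these changes, and neither DESeq2 nor limma-voom called one. The smallest unadjusted p-values were those of Utf1 from day 0 to day 3 (p = 0.0074, adjusted p = 0.22 in edgeR; called without line 319, at -3.06, adjusted p = 0.036) and of Sox2 and Utf1 from day 2 to day 3 (each p = 0.014, adjusted p = 0.48 in edgeR).

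**Figure D2:**
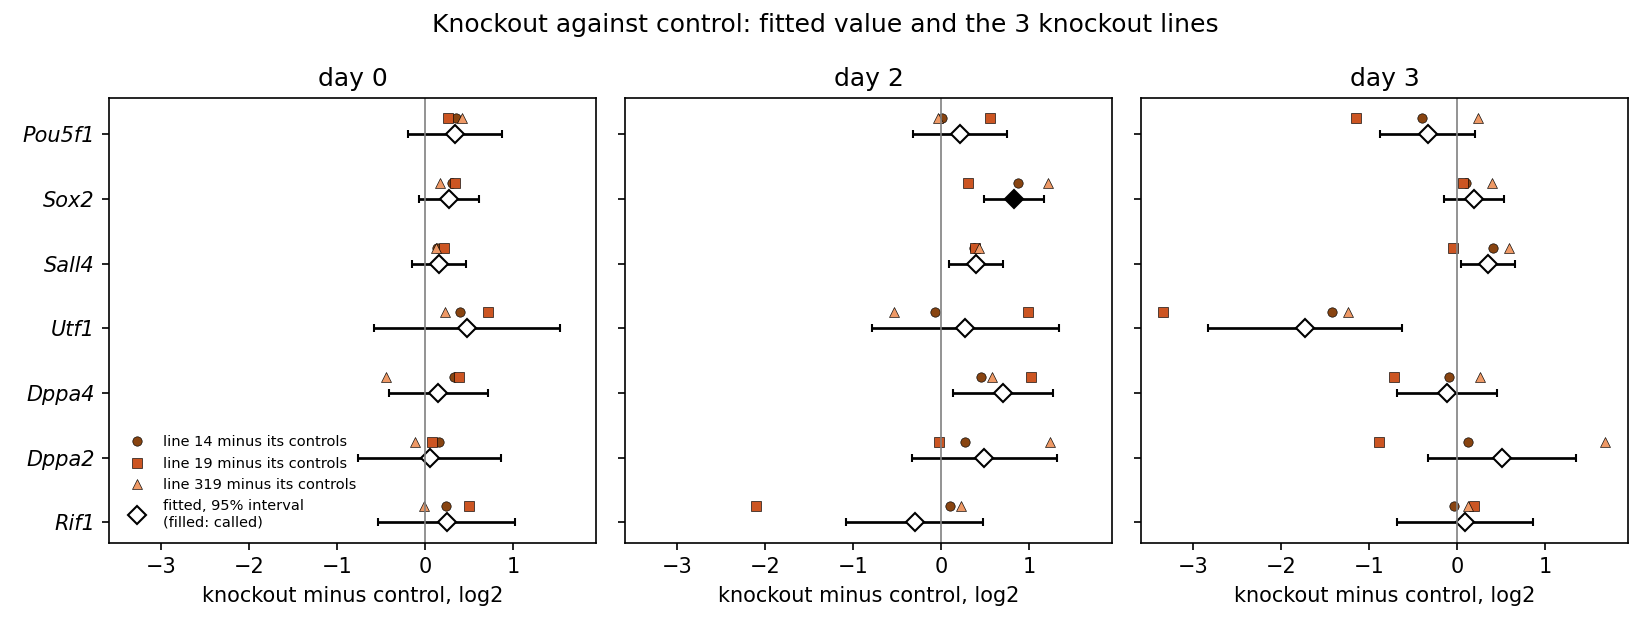
Knockout minus control on the log2 scale for each gene at days 0, 2 and 3. Diamonds are the values fitted over all samples with 95% intervals (filled where called), and the small symbols give lines 14 and 19 against HM1 and line 319 against 1A4. Sox2 at day 2 is the only filled diamond, and the spread between lines is widest for Utf1 and Dppa2 at day 3 and Rif1 at day 2.

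Pou5f1, which encodes OCT4, was the most abundant of the 7 per length and kept most of its transcript until day 2. In the controls (HM1 replicate 1, HM1 replicate 2 and 1A4) it was at 1038, 999.4 and 1127 CPM on day 0, at 782.1, 742.8 and 902.5 CPM on day 2 and at 155.4, 161.1 and 200.9 CPM on day 3. Lines 14, 19 and 319 had 1298, 1222 and 1506 CPM on day 0, 769.0, 1124 and 879.0 CPM on day 2 and 120.1, 71.3 and 237.7 CPM on day 3. The day 3 samples of either genotype were thus far below all day 2 samples. Between days 2 and 3 Pou5f1 fell by 2.24 ± 0.26 (SE) on the log2 scale in the controls, a 4.71-fold fall, and by 2.78 ± 0.27 in the knockout lines, a 6.87-fold fall (adjusted p = 2.8e-05 and 3.5e-06, edgeR). The knockout fall was 5.84-fold without the day 2 sample of line 19.

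The first step was not called for Pou5f1 (log2 -0.39 ± 0.25 in controls, adjusted p = 0.25; -0.52 ± 0.25 in knockouts, adjusted p = 0.12; edgeR). Without the day 2 sample of line 19 the knockout value was -0.76 and was called (adjusted p = 0.024, edgeR), and without line 19 on all days both genotypes were (-0.37 in controls, adjusted p = 0.034; -0.75 in knockouts, adjusted p = 0.0033; edgeR). On day 0 all 3 knockout lines lay above all 3 control samples, by a fitted 0.34 ± 0.25 that was not called (adjusted p = 0.76, edgeR; 95% interval -0.19 to 0.88). On day 3 the lines parted: line 19 was 1.15 below HM1 and line 14 0.40 below it on the log2 scale, given as log2(CPM + 0.5), whereas line 319 was 0.24 above 1A4. The fitted day 3 difference was -0.33 ± 0.25 (adjusted p = 0.48, edgeR), and without line 319 it was -0.76 and was called (adjusted p = 0.042, edgeR).

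Sox2, the partner of OCT4, behaved otherwise: in the controls it fell in the first step and did not change detectably in the second. Control values were 394.8, 415.1 and 330.6 CPM on day 0, 142.0, 155.4 and 114.6 CPM on day 2 and 144.2, 154.8 and 116.1 CPM on day 3. The knockout lines 14, 19 and 319 were at 499.1, 511.7 and 372.3 CPM on day 0, 272.0, 183.4 and 266.5 CPM on day 2 and 161.0, 157.0 and 153.7 CPM on day 3. On day 2 every knockout sample was above every control sample, while on days 0 and 3 the groups overlapped. The mean on day 2 was 240.6 ± 49.6 CPM (SD, n = 3) in the knockout lines and 137.3 ± 20.8 CPM (SD, n = 3) in the controls.

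The day 2 difference was 0.83 ± 0.16 on the log2 scale, 1.78-fold higher in the knockout (adjusted p = 0.02, edgeR). It was higher in each line against its own controls, by 0.87 in line 14, 0.30 in line 19 and 1.21 in line 319. The call held without line 19 (1.03, adjusted p = 0.00085) or line 319 (0.62, adjusted p = 0.039; edgeR) and was lost without any other series: leaving out HM1 replicate 1 gave an adjusted p of 0.22 in edgeR, HM1 replicate 2 gave 0.19, 1A4 gave 0.14 and line 14 gave 0.054, with differences from 0.72 to 0.89. Lines 14, 19 and HM1 by themselves did not give the call either (0.61, adjusted p = 0.11), nor did a fit of day 2 alone (0.83, adjusted p = 0.48) or scaling by library size alone (0.72, adjusted p = 0.082; edgeR), where the median of all genes moved by -0.129 and the share of higher calls from 39.7% to 25.3%. Without the line 19 sample of that day the difference was larger (1.03, adjusted p = 4.2e-04, edgeR).

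The day courses of Sox2 give the same values from the other side. In the controls Sox2 fell by 1.47 ± 0.17 from day 0 to day 2 (2.77-fold, adjusted p = 1.2e-05, edgeR) and its change from day 2 to day 3 was 0.01 ± 0.16 (adjusted p = 0.97, edgeR; 95% interval -0.33 to 0.35). In the knockout lines it fell by 0.92 ± 0.16 in the first step (1.89-fold, adjusted p = 5e-04) and by 0.62 ± 0.16 in the second (1.54-fold, adjusted p = 0.0087; edgeR). Without the day 2 sample of line 19 these knockout changes were -0.71 and -0.83, both called. The second fall was not called without line 14 (-0.55, adjusted p = 0.083, edgeR), in the knockout lines fitted alone (-0.62, adjusted p = 0.079) or by library size alone (-0.41, adjusted p = 0.13; edgeR). The genotype difference changed by 0.56 ± 0.23 between days 0 and 2 and by -0.63 ± 0.23 between days 2 and 3 (adjusted p = 0.63 and 0.48, edgeR), so a different course in the 2 genotypes was not called. Without the day 2 sample of line 19 the later change was -0.84 and just passed (adjusted p = 0.049, edgeR).

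Markers of neural progenitors, in which SOX2 is kept, were summed in the same samples. Their 8 genes added up to 208.3 to 266.1 CPM in the day 2 controls and 83.7 to 170.9 CPM in the day 2 knockout samples, and to 278.0 to 333.0 and 247.3 to 915.8 CPM on day 3. Pax6 and Msx1 were called higher in the knockout lines on day 3 (log2 2.25 ± 0.45 and 2.83 ± 0.40, adjusted p = 0.012 and 0.0021, edgeR), where 5.19% of all genes were called. Hes5 and Zfp521 were below 0 on that day (-0.90 and -0.42) and were not called. No marker of that list was at 0 in a whole group. On day 2, where Sox2 was higher in the knockout lines, the summed markers were lower there. That sum was mostly Nes, at 223.4 ± 32.1 CPM (SD, n = 3) in the controls and 108.3 ± 35.6 CPM in the knockout lines (log2 -1.11 ± 0.34, adjusted p = 0.098, edgeR). Of the other genes, Msx1 was called higher in the knockout (1.68 ± 0.40, adjusted p = 0.045, edgeR). The fitted values of Sox1, Pax6, Pax3 and Olig2 were also above 0 (0.40, 0.26, 1.94 and 1.68). Hes5 and Zfp521 had lower means in the knockout lines (0.428 and 6.91 CPM) than in the controls (0.497 and 10.06 CPM). Olig2, Pax3 and Hes5 were at low levels, with at most 5, 16 and 29 counts in any day 2 sample. The markers thus did not move one way. Their part in the Sox2 difference was not tested.

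**Figure D3:**
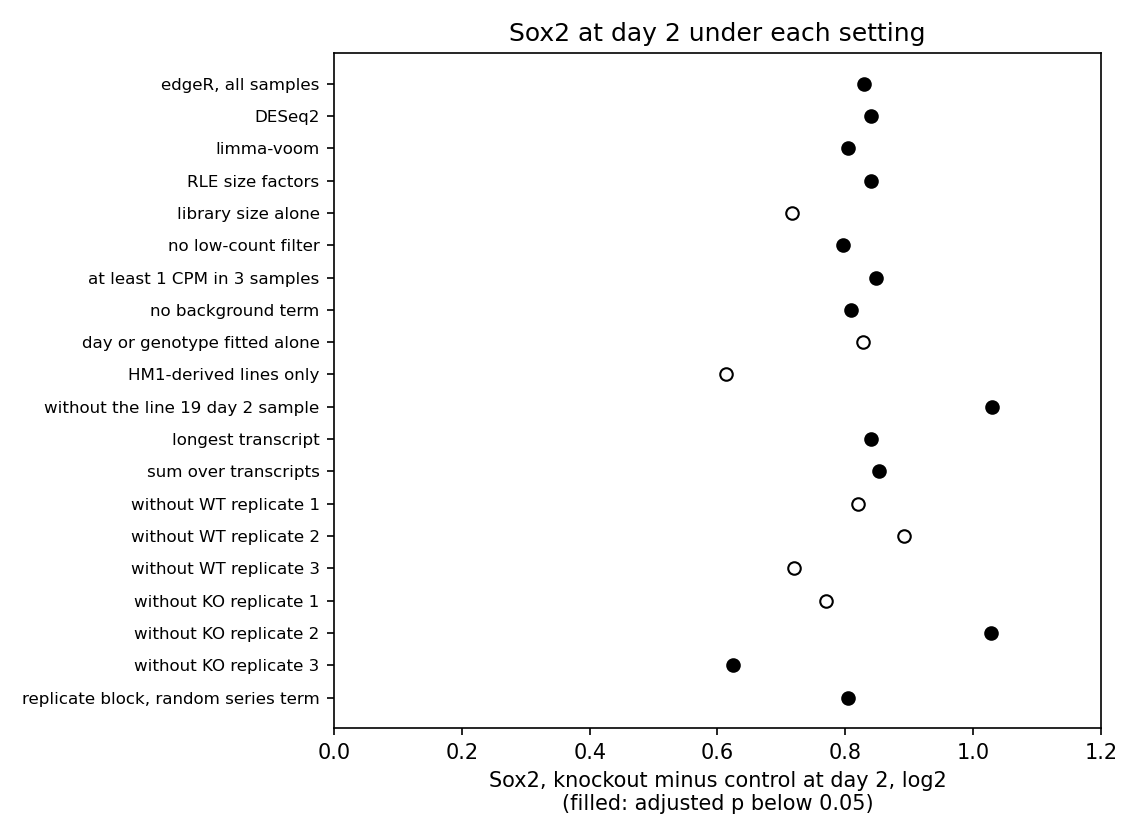
Sox2, knockout minus control at day 2 (log2), refitted with each alternative tool, scaling, filter and set of samples; filled points passed an adjusted p of 0.05. WT replicates 1, 2 and 3 are HM1 replicate 1, HM1 replicate 2 and line 1A4, and KO replicates 1, 2 and 3 are lines 14, 19 and 319. The difference was above 0.6 in every setting shown, and 7 of them did not pass.

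Sall4, the zinc finger partner of OCT4 that recruits NuRD, stepped down in both steps, with control samples close together on each day. The controls had 432.0, 414.1 and 413.0 CPM on day 0, 240.3, 233.1 and 237.1 CPM on day 2 and 170.9, 173.0 and 185.9 CPM on day 3. Lines 14, 19 and 319 had 464.8, 490.8 and 449.2 CPM, then 308.2, 310.5 and 319.1 CPM, then 229.4, 167.2 and 281.4 CPM. On days 0 and 2 each knockout sample exceeded each control sample, and on day 3 line 19 was below all 3 controls.

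From day 0 to day 2 Sall4 fell by 0.83 ± 0.14 in the controls (1.77-fold, adjusted p = 0.00044) and by 0.59 ± 0.14 in the knockout lines (adjusted p = 0.0052; edgeR). From day 2 to day 3 the falls were 0.43 ± 0.14 (1.34-fold, adjusted p = 0.045) and 0.48 ± 0.14 (1.39-fold, adjusted p = 0.02; edgeR). The second control fall was close to the threshold and lost its call without any 1 control series (adjusted p = 0.31, 0.29 and 0.14 without HM1 replicate 1, HM1 replicate 2 and 1A4) and without line 14 (0.08). The second knockout fall lost it without line 14 (adjusted p = 0.078, edgeR) or an HM1 replicate (0.06 and 0.061). By library size alone the second falls were 0.288 and 0.239 (adjusted p = 0.21 and 0.24, edgeR). The genotype difference was 0.16 ± 0.14 on day 0, 0.40 ± 0.14 on day 2 and 0.35 ± 0.14 on day 3 (adjusted p = 0.83, 0.14 and 0.16, edgeR). On day 2 the 3 lines differed from their own controls by 0.38, 0.39 and 0.43. DESeq2 called that difference (0.41, adjusted p = 0.045), as did edgeR without line 19 (0.39, adjusted p = 0.041), which also called the day 3 difference (0.51, adjusted p = 0.0093).

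Utf1, an OCT4 and SOX2 target gene whose product acts on bivalent chromatin, had the largest fitted fall of the 7 between day 2 and day 3 in both genotypes. It was at 255.4, 222.0 and 169.1 CPM in the day 0 controls, at 244.2, 263.3 and 246.2 CPM on day 2 and at 26.1, 46.8 and 50.0 CPM on day 3. Lines 14, 19 and 319 were at 313.8, 392.0 and 197.7 CPM on day 0, 241.9, 505.3 and 169.8 CPM on day 2 and 12.7, 3.02 and 20.96 CPM on day 3. All 3 knockout samples of day 3 were below all 3 controls.

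Between day 2 and day 3 Utf1 fell by 2.61 ± 0.53 in the controls (6.11-fold, adjusted p = 0.0024) and by 4.62 ± 0.59 in the knockout lines (24.5-fold, adjusted p = 4.4e-05; edgeR). Without the day 2 sample of line 19, the highest of the 6 on that day, the knockout fall was 16.9-fold (adjusted p = 0.00011, edgeR). The control fall was not called without HM1 replicate 1 (-2.39, adjusted p = 0.054, edgeR). No change was called between day 0 and day 2 (0.22 ± 0.50 in controls and 0.02 ± 0.50 in knockouts, adjusted p = 0.76 and 0.98, edgeR). The day 3 genotype difference was -1.73 ± 0.52 and narrowly missed the threshold (adjusted p = 0.065, edgeR; 95% interval -2.83 to -0.63). Against their own controls the lines were lower by 1.42 (line 14), 3.33 (line 19) and 1.24 (line 319). The difference was called by DESeq2 (-1.73, adjusted p = 0.01), by limma-voom (-1.99, adjusted p = 0.035) and in edgeR without the day 2 sample of line 19 (-1.75, adjusted p = 0.028). It was also called in edgeR without line 19 on all days (-1.28, adjusted p = 0.035) and without line 319 (-2.35, adjusted p = 0.016). On day 2 the fitted difference was 0.28 ± 0.50 with line 19 and -0.29 without that sample, and neither was called (adjusted p = 0.79 with it, edgeR).

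Dppa4 and Dppa2 are neighbouring genes whose products form a pair. Dppa2 was called lower in the first step and Dppa4 in the second, and whether their courses differ was not tested. Dppa4 was at 103.5, 93.3 and 100.3 CPM in the day 0 controls, at 55.2, 62.8 and 72.3 CPM on day 2 and at 25.2, 29.0 and 33.8 CPM on day 3. Lines 14, 19 and 319 were at 123.6, 128.5 and 73.6 CPM, then 81.0, 120.3 and 107.9 CPM, then 25.4, 16.3 and 40.5 CPM. On day 2 all knockout samples were above all controls, and on days 0 and 3 the knockout samples lay on either side of them.

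Dppa4 fell from day 2 to day 3, by 1.11 ± 0.27 in the controls (2.165-fold, adjusted p = 0.0076) and by 1.93 ± 0.28 in the knockout lines (3.82-fold, adjusted p = 0.00012; edgeR; 3.42-fold without the day 2 sample of line 19). The control fall lost its call without any 1 control series (adjusted p = 0.091, 0.098 and 0.065 without HM1 replicate 1, HM1 replicate 2 and 1A4, edgeR). The first step was not called (-0.65 ± 0.27 in controls, adjusted p = 0.07; -0.10 ± 0.27 in knockouts, adjusted p = 0.8; edgeR), although DESeq2 called the control value (-0.66, adjusted p = 0.048), as did edgeR without line 19 (-0.63, adjusted p = 0.018) or line 319 (-0.64, adjusted p = 0.012). The day 2 genotype difference was 0.70 ± 0.27 (adjusted p = 0.16, edgeR), with 0.46, 1.03 and 0.58 in lines 14, 19 and 319, and 0.53 without the day 2 sample of line 19 (adjusted p = 0.34, edgeR). Without line 319 it was 0.74 and was called (adjusted p = 0.048, edgeR).

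Dppa2 was the least abundant of the 7 per length in every group. Its control values were 69.7, 63.8 and 77.2 CPM on day 0, 18.3, 26.4 and 22.1 CPM on day 2 and 9.77, 12.6 and 10.9 CPM on day 3. Lines 14, 19 and 319 had 74.4, 70.4 and 71.0 CPM on day 0, 26.7, 21.6 and 52.8 CPM on day 2 and 12.1, 5.77 and 36.05 CPM on day 3. After day 0 line 319 was the highest of the 6 samples, and line 19 was the lowest on day 3.

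From day 0 to day 2 Dppa2 fell by 1.64 ± 0.39 in the controls (3.11-fold, adjusted p = 0.0045) and by 1.198 ± 0.39 in the knockout lines (2.29-fold, adjusted p = 0.026; edgeR). The control call was lost without HM1 replicate 1 (adjusted p = 0.079, edgeR). The knockout call was lost without line 14 (0.18), line 19 (0.055), HM1 replicate 1 (0.057) or the day 2 sample of line 19 (-1.03, adjusted p = 0.084; edgeR). The second step was -1.01 ± 0.39 in controls and -0.99 ± 0.39 in knockouts (adjusted p = 0.08 and 0.062, edgeR). The control value was called without line 19 (0.017) or line 319 (0.006), and the knockout value without line 319 (-1.42, adjusted p = 0.0027) or 1A4 (0.044; edgeR), and DESeq2 called both. The genotype difference on day 3 was 0.51 ± 0.40 over all lines (adjusted p = 0.49, edgeR), from 0.12 in line 14 and -0.89 in line 19 to 1.69 in line 319 against 1A4, and it was -0.32 in the HM1-derived lines alone. Whether the knockout minus control difference was unlike in HM1-derived and blastocyst-derived lines was tested over the 3 days. For Dppa2 this contrast was 1.05 ± 0.42 and was not called (adjusted p = 0.19, edgeR), and none of the 7 was (3.54% of all genes called). The blastocyst-derived pair is a single line of each genotype, XX with 42 chromosomes in line 319 and XY with 40 in 1A4. Background, line and karyotype thus cannot be told apart in this contrast.

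Rif1, the replication timing and end protection factor, fell from day 2 to day 3 in the controls. In the controls it was at 684.3, 606.3 and 857.4 CPM on day 0, at 601.0, 691.5 and 693.6 CPM on day 2 and at 292.1, 297.4 and 268.6 CPM on day 3. The knockout lines 14, 19 and 319 were at 757.4, 909.9 and 852.5 CPM, then 690.0, 150.3 and 810.5 CPM, then 287.2, 336.4 and 294.2 CPM. Apart from the day 2 sample of line 19, which had 1993 counts of this 8509-base transcript, the genotypes overlapped on each day.

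The control fall from day 2 to day 3 was 1.203 ± 0.37 on the log2 scale (2.30-fold, adjusted p = 0.029, edgeR). It lost its call without any 1 control series (adjusted p = 0.16, 0.2 and 0.17 without HM1 replicate 1, HM1 replicate 2 and 1A4, edgeR), without line 14 (0.05), when line 319 and 1A4 were both left out (0.15) and by library size alone (-1.06, adjusted p = 0.079, edgeR). In the knockout lines the step was -0.81 ± 0.37 and was not called (adjusted p = 0.099, edgeR), and without the day 2 sample of line 19 it was -1.28 and was called (adjusted p = 1.1e-05, edgeR). The day 2 genotype difference turned with that sample, from -0.30 ± 0.37 (adjusted p = 0.68, edgeR) to 0.162 without it. The low Rif1 value was in the 1 sample with the strong length dependence and the high Gm42418 share, whose part in it was not tested.

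**Figure D4:**
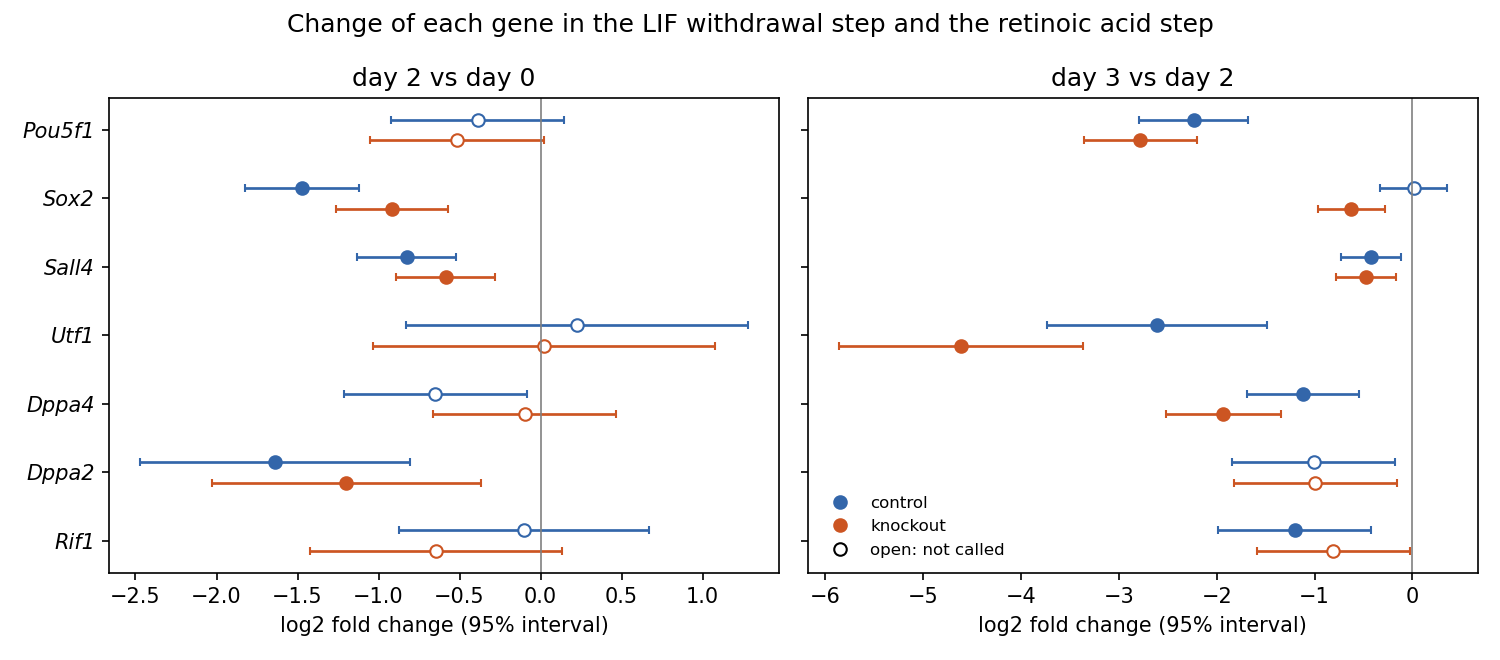
Log2 change of each gene from day 0 to day 2 and from day 2 to day 3, for control (blue) and knockout (orange) samples, with 95% intervals; filled points were called. Sox2, Sall4 and Dppa2 are called in the first step, and in the second Utf1 and Pou5f1 have the largest called falls in both genotypes.

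Per kilobase of transcript, which allows genes to be compared, Pou5f1 ranked first in all 6 groups and Dppa2 last. On day 0 the controls had 774.4 ± 48.1 CPM per kilobase of Pou5f1 (SD, n = 3), 184.8 ± 21.5 of Sox2 and 175.7 ± 35.4 of Utf1, then 84.2 ± 15.1 of Rif1, 82.7 ± 2.1 of Sall4, 66.9 ± 3.5 of Dppa4 and 36.1 ± 3.4 of Dppa2. Sox2 and Utf1 overlapped in that order, as did Rif1 and Sall4; the other neighbours did not. By day 3 the controls had 126.6 ± 18.2 CPM per kilobase of Pou5f1 and 67.3 ± 9.7 of Sox2, which did not overlap. In the knockout lines they did, at 105.0 ± 62.8 and 76.4 ± 1.8. Utf1 moved furthest in the order, from rank 2 on day 2 to rank 5 in the controls and rank 6 in the knockout lines on day 3, where its 9.98 ± 7.32 CPM per kilobase overlapped Dppa2 at 9.23 ± 8.19.

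The genes fell into looser and closer pairs across the 18 samples, which share the day course. Pearson's r of log2 CPM was highest for Pou5f1 with Dppa4 (0.955), Sall4 with Dppa2 (0.95) and Pou5f1 with Utf1 (0.942), and lowest for Sox2 with Utf1 (0.495). Pou5f1 and Sox2 had 0.643, and the neighbours Dppa4 and Dppa2 0.86. Among 8226 genes that averaged 10 CPM or more, the closest to Pou5f1 were L1td1 (r = 0.991, n = 18), an RNA-binding protein of pluripotent cells, and Fgf4 (0.981), a growth factor gene with an OCT4 and SOX2 enhancer. L1td1 was at 965.4, 495.5 and 74.9 CPM in the controls and 1102, 640.0 and 65.2 CPM in the knockout lines over the 3 days. Sall4 was closest to Clcn2 (0.978) and Dhx16 (0.977), Sox2 to Tor1aip2 and Clp1 (each 0.947), and Dppa2 to Epha2 (0.972), an ephrin receptor, and Dennd2c (0.968). Dppa4 was closest to Spry2 (0.971), an inhibitor of ERK signalling, and Mta3 (0.97), a NuRD subunit that was also closest to Utf1 (0.959, ahead of Chchd10 at 0.957). Rif1 was closest to Hells (0.965), a chromatin remodeller, and Zfp990 (0.965). These are descriptions over samples of the same 6 groups. Without the day 2 sample of line 19 the lowest pair was again Sox2 with Utf1 (0.544, n = 17), Rif1 with Pou5f1 went from 0.658 to 0.933 and Rif1 with Dppa4 from 0.576 to 0.898. The closest genes then changed for Sox2, for Dppa4 (Pml and Etv5) and in part for Sall4 (Msrb1), Utf1 (Hdac4) and Rif1 (Rfc5), and L1td1 and Fgf4 stayed closest to Pou5f1, as Epha2 and Dennd2c did to Dppa2.

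Among known OCT4 and SOX2 target genes, different members led the fall in each step. Of 12 tested in the controls, 8 fell and 1 rose from day 0 to day 2, where 35.2% of all genes were called (15.5% lower). The list median was -2.28 against 0.01 for all genes. Zfp42 (-3.37 ± 0.43), Nr0b1 (-3.33 ± 0.47), Nanog (-2.72 ± 0.52) and Spp1 (-2.56 ± 0.36) had the largest falls, whereas Phc1, a Polycomb subunit, rose by 0.92 ± 0.29 (adjusted p from 3.4e-05 for Zfp42 to 0.021 for Phc1, edgeR). From day 2 to day 3 6 fell (median -1.18 against 0.00), where 21.4% of all genes were called (8.92% lower). These were led by Fgf4 (-3.28 ± 0.48), Tdgf1 (-2.38 ± 0.64), Phc1 (-2.10 ± 0.30) and Zscan10 (-1.29 ± 0.25). The control mean of Lefty1 went up in that step, from 39.5 ± 19.6 CPM on day 2 to 176.6 ± 65.0 CPM on day 3 (SD, n = 3). In the controls Fgf4, like Pou5f1, was called lower in the second step and not in the first, and Nanog, like Sox2, in the first and not in the second. In the knockout lines 8 fell in the first step and 7 in the second, where 15.1% and 16% of all genes were called lower. The largest of these falls was that of Tdgf1 in the second step, at -5.21 ± 0.73 (adjusted p = 9.8e-05, edgeR).

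Between genotypes no target was called on day 0 or day 2, and 2 were on day 3 (list median -0.36 against 0.02). Of all genes 0.854%, 1.6% and 5.19% were called on days 0, 2 and 3. Tdgf1, the Nodal co-receptor Cripto, was at 15.9 to 24.3 CPM in the controls and 0.549 to 9.34 CPM in the knockout lines, a difference of -2.55 ± 0.68 (adjusted p = 0.041, edgeR). Spp1, which encodes osteopontin, was at 22.8 to 36.6 and 57.1 to 146.5 CPM, a difference of 1.44 ± 0.35 (adjusted p = 0.03, edgeR). For Nanog the values were 64.3 to 84.6 CPM and 9.85 to 71.3 CPM, with a difference of -1.23 ± 0.51 that was not called (adjusted p = 0.17, edgeR). Over the 3 days the knockout minus control difference of Nanog and Spp1 was higher in the blastocyst-derived pair than in the HM1-derived lines (by 1.86 ± 0.41 and 1.28 ± 0.28, each adjusted p = 0.022, edgeR). That pair is a single line of each genotype, followed over the same days. Line 319 also differs from 1A4 in sex chromosomes and chromosome number, so background, line and karyotype cannot be told apart.

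The naive and formative lists give the course of the cells around these genes. Nanog, Nr0b1 and Zfp42 are in both the naive list and the target list above. All 12 naive factors tested fell from day 0 to day 2 in either genotype, with medians of -3.35 in the controls and -3.99 in the knockout lines, and none of the 12 was called in the second control step. All 8 formative genes rose in the first step (medians 1.87 and 2.27), and 7 fell in the second in either genotype. Of all genes 35.2% and 35.9% were called in the first step of the controls and knockout lines, and 21.4% and 33.6% in the second. Between genotypes 1 naive factor was called (lower on day 3, where 5.19% of all genes were called) and no formative gene.

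Some relatives of OCT4, SOX2 and SALL4 took other courses. Among 10 POU genes Pou3f1 (OCT6), a formative factor, rose in the controls from 13.8 ± 5.0 CPM on day 0 to 97.6 ± 15.0 CPM on day 2 (SD, n = 3), and returned to 20.0 ± 8.0 CPM on day 3 (log2 2.82 ± 0.53, then -2.29 ± 0.52; adjusted p = 0.00082 and 0.0053, edgeR). The neural POU genes Pou3f2, Pou3f3 and Pou3f4 rose from day 2 to day 3 in both genotypes, led by Pou3f2 (4.37 ± 0.74 and 4.60 ± 0.74). In the controls 4 of the 10 POU genes were called in each step, where 35.2% and 21.4% of all genes were. In the knockout lines 4 were called in the first step and 6 in the second (35.9% and 33.6% of all genes). On day 3 Pou4f1, a sensory neuron factor, was 2.39-fold higher in the knockout lines (14.8 ± 3.7 against 6.21 ± 0.34 CPM, adjusted p = 0.0042), and Pou3f3 3.01-fold higher at a low level (3.07 ± 1.37 against 0.98 ± 0.25 CPM, adjusted p = 0.02; edgeR).

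Of 7 SOX genes of groups B and C, 5 rose and 1 fell in the first step in either genotype. Of all genes 35.2% were called in that step in the controls and 35.9% in the knockout lines. Sox3 and Sox11, which act in neural progenitors and early neurons, rose by 2.96 ± 0.42 and 2.11 ± 0.17 in the controls (adjusted p = 8.7e-05 and 1.1e-06, edgeR), the step in which Sox2 fell. Sox21, a group B repressor, fell by 3.97 ± 0.30 and then rose by 2.37 ± 0.29 (adjusted p = 6.5e-07 and 4.1e-05, edgeR). On day 3 it was the 1 SOX relative called between genotypes, where 5.19% of all genes were called. It was at 35.5 ± 21.1 CPM in the knockout lines and 8.93 ± 3.56 CPM in the controls (3.54-fold higher, adjusted p = 0.003, edgeR). It was also lower in the blastocyst-derived lines by 1.56 ± 0.19 (adjusted p = 0.0002, edgeR; 4.15% of all genes called for this term, and none of the 7 members). Of the SALL relatives Sall2 rose in the first step, from 24.0 ± 8.2 to 152.5 ± 17.9 CPM in the controls (2.71 ± 0.33, adjusted p = 2.1e-05, edgeR), while Sall4 fell. Sall3 rose in the second (1.71 ± 0.46, adjusted p = 0.014, edgeR). Sall1 fell in the second control step, as Sall4 did (-0.95 ± 0.30, adjusted p = 0.033, edgeR). In the knockout lines Sall1 was not called in that step (-0.795 ± 0.30, adjusted p = 0.052, edgeR). Of all genes 35.2% and 21.4% were called in the 2 control steps. No SALL relative was called between genotypes.

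Partner proteins were read in the same way. Among 11 NuRD subunits, the partners of SALL4, 3 fell and 1 rose in the first control step and 4 fell in the second, with medians of -0.29 and -0.22 (35.2% and 21.4% of all genes were called in these steps). The largest were Mta1 (0.87 ± 0.13) and Mta2 (-0.59 ± 0.12) in the first step and Mta3 in the second (-0.68 ± 0.18 in controls, -1.24 ± 0.18 in knockout lines). No NuRD subunit was called between genotypes, where 0.854%, 1.6% and 5.19% of all genes were on days 0, 2 and 3. Of 7 tested partners of RIF1 in end protection and phosphatase binding, Trp53bp1 (53BP1) rose in the first control step (0.93 ± 0.20, adjusted p = 0.002, edgeR), none was called in the second, and none was called between genotypes.

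Genes of the 2-cell-stage programme, which DPPA2 and DPPA4 activate, differed between genotypes on day 3 although neither Dppa2 nor Dppa4 was called then. Of 7 tested, 6 were called higher in the knockout lines on day 3 (5.19% of all genes called), with a list median of 3.06 against 0.02 for all genes. From day 2 to day 3, 6 rose in the knockout lines (33.6% of all genes called) and none was called in the controls (21.4%). Zscan4d was at 0.182 to 0.568 CPM in the day 3 controls and at 2.12, 2.13 and 8.59 CPM in the knockout lines, a difference of 3.39 ± 0.67 (adjusted p = 0.012, edgeR). Its change of the genotype difference from day 2 to day 3 was 2.80 ± 0.92 and was not called (adjusted p = 0.44, edgeR), so a different step in the 2 genotypes was not shown. The levels are low, near-identical copies of Zscan4 and Usp17l genes can share reads, and Tcstv3 had at most 11 counts in any day 3 sample. Duxf3, the factor at the head of the programme, had 0 counts in all 18 samples.

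Markers of other cell types were summed beside these results. The 11 feeder fibroblast genes added up to between 75.4 and 220.1 CPM over all samples, with ranges that overlapped between genotypes on each day, and no marker was at 0 in a whole group. The 8 trophoblast genes were at 186.3 to 444.0 CPM in the day 0 controls and 76.3 to 130.7 CPM in the day 0 knockout samples, and the 8 mesendoderm genes at 58.1 to 124.5 and 12.4 to 17.3 CPM, with Cer1 at 0 in the latter. The 8 primitive endoderm genes had 77.9 to 105.7 and 56.8 to 107.2 CPM there. Of the trophoblast genes Krt8 and Krt18 were called lower in the knockout lines on day 0 (log2 -2.83 and -2.49, adjusted p = 0.014 and 0.016, edgeR). Cdx2, Eomes, Hand1 and Tfap2c were below 0 (-1.79, -1.47, -2.01 and -0.38) and Gata3 above 0 (1.85), none of them called. On day 2 the ranges were 149.9 to 205.8 and 92.5 to 203.0 CPM for trophoblast, 19.9 to 38.1 and 9.12 to 25.9 CPM for mesendoderm, and 100.8 to 104.8 and 47.5 to 101.4 CPM for primitive endoderm. On day 3 the primitive endoderm genes had 230.3 to 271.0 CPM in the controls and 186.2 to 376.0 CPM in the knockout samples. That sum was mostly Col4a1, which was not called. Foxa2 was called lower in the knockout lines on day 0 (log2 -1.99, adjusted p = 0.02, edgeR). Pdgfra was called higher on days 2 and 3 and Gata4 on day 3 (1.47, 1.455 and 1.36, adjusted p = 0.032, 0.015 and 0.023, edgeR). Dab2, Foxa2 and Gata6 were below 0 on day 3, none of them called. The trophoblast and mesendoderm sums did not overlap between genotypes on day 3. Trophoblast genes were at 150.1 to 289.4 CPM in the controls and 52.7 to 141.3 CPM in the knockout samples. Mesendoderm genes were at 11.96 to 22.5 and 31.2 to 77.8 CPM, the opposite order to day 0. In the knockout samples that mesendoderm sum was mostly Lhx1, at 42.3 ± 22.8 CPM (SD, n = 3) against 9.02 ± 5.62 CPM in the controls. Lhx1 was the only tested gene of that list called on day 3 (log2 2.24 ± 0.46, adjusted p = 0.013, edgeR). Fitted values were above 0 for Cer1, Eomes, Gsc and Mixl1 and below 0 for T and Fgf8 (-1.19 and -0.27). The day 3 trophoblast sum was mostly Krt18, called lower in the knockout lines (log2 -1.62 ± 0.45), and Krt8, not called (-1.49 ± 0.50). Cdx2 was called higher there (3.26 ± 0.89, adjusted p = 0.045, edgeR), with a median of 0.744 and a maximum of 19.7 CPM in the knockout lines. Gata3 and Eomes were also above 0 (1.58 and 1.09) and Hand1 and Tfap2c below 0 (-1.44 and -0.64), none of them called. The part of these marker genes in the member differences was not tested.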

How the data were processed

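Raw counts per Ensembl transcript were deposited, 1 table for each of 72 libraries; per the submitters' processing notes the tools were bcl2fastq 2.17.1.14, STAR 2.4.0k, SAMtools and HTSeq on mm10, and per the labels' protocols the libraries were stranded and polyA-selected. Whether counting used strand is not given in the sources used here. The 4 technical libraries of a sample were summed (chi-square per degree of freedom 1.009 to 1.028, so they differed by little more than counting noise). A gene was represented by its transcript with the highest total, since counts summed over all transcripts were 2.68 to 2.97 times these gene totals; 108214 of 110379 identifiers matched GENCODE M21.

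Genes were tested in edgeR 4.0.16 (R 4.3.3, limma 3.58.1; DESeq2 1.42.0 as an alternative) with TMM scaling, filterByExpr, 6 groups, a term for background (HM1 or blastocyst) and 11 residual degrees of freedom. P-values were adjusted by Benjamini-Hochberg over 18273 genes and called below 0.05. The scripts were tested on simulated data. The members and gene lists were chosen with earlier results of these data known. Named beside the members were the 2 genes most correlated with each (at least 10 CPM, not on chromosomes 8, 12, X, Y or mitochondrial) and at most 4 called genes per list and comparison with the largest change; relatives and targets could be named uncalled. Same-line samples are paired between days by construction, and 16 of 18 same-line pairs had correlated deviations above 0.1 (lowest -0.088, highest 0.4).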

Additional observations from a re-analysis of the deposited data

Results flagged for a closer look

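In 4 cases lines 14 and 19 moved one way against HM1 and line 319 the other way against 1A4, on the log2(CPM + 0.5) scale. Pou5f1 on day 3 was lower in lines 14 and 19 (-0.397 and -1.145) and higher in line 319 (0.242). Dppa4 on day 0 was higher in lines 14 and 19 (0.33 and 0.386) and lower in line 319 (-0.444). Dppa2 on day 0 was at 0.157 and 0.078 in lines 14 and 19 and at -0.119 in line 319. Rif1 on day 0 was at 0.234 and 0.498 in lines 14 and 19 and at -0.008 in line 319. The difference on that single day was not tested; over the 3 days together the knockout effect was not called as different between backgrounds for any of these genes (adjusted p = 0.72 for Pou5f1, 0.95 for Dppa4, 0.19 for Dppa2 and 0.89 for Rif1, edgeR).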

How the results depend on the processing

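Over 20 alternative settings 1568 values of the 7 genes were recomputed: 1429 kept their direction and side of the threshold, 46 lost and 41 gained a call, and 52 turned direction, of which 0 were called before or after. Where no cause is given, the cause was not tested.

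The number of the 7 genes called on day 2 between genotypes (1) was 2 by DESeq2 and 0 by library size alone, with the day fitted alone and in HM1-derived lines only. On day 3 (0) it was 1 by DESeq2, limma-voom, the day fitted alone and without the line 19 day 2 sample. For the control steps it was 5 in place of 3 in the first step with controls fitted alone, and 3 in place of 5 in the second by library size alone, with no low-count filter and in HM1-derived lines only. For the knockout steps it was 1 in place of 3 with knockouts fitted alone (Sall4 and Dppa2 lost), and 3 in place of 5 by library size alone or with knockouts fitted alone. Without the line 19 day 2 sample 1 gene was called for the change from day 2 to day 3 and 1 for the background term.

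Leaving out each replicate gave 0 to 2 genes on day 2 and on day 3 between genotypes. The counts were 2 to 5 and 1 to 6 in the control steps and 2 to 3 and 3 to 6 in the knockout steps. They were 0 to 1 for the change from day 0 to day 3 and 0 to 2 for the background term. The count of the first control step was 5 without line 19, and in the second leaving out HM1 replicate 1 left 1 gene, HM1 replicate 2 or 1A4 left 2 and line 14 left 3. Uncalled values that turned, with their range over the left-out replicates, were on day 0 between genotypes Dppa4 (-0.015 to 0.421) and Dppa2 (-0.172 to 0.158), on day 2 Pou5f1 (-0.029 to 0.31), Utf1 (-0.281 to 0.565) and Rif1 (-0.637 to 0.153), and on day 3 Dppa4 (-0.407 to 0.119), Dppa2 (-0.272 to 0.951) and Rif1 (-0.042 to 0.164). In the first step they were Rif1 in controls (-0.248 to 0.002) and Utf1 (-0.29 to 0.184) and Dppa4 (-0.32 to 0.153) in knockouts. Changes of the genotype difference were Rif1 from day 0 to day 2 (-0.909 to 0.002), Sall4 (-0.215 to 0.12), Dppa2 (-0.411 to 0.248) and Rif1 (-0.161 to 0.775) from day 2 to day 3, and Sox2 (-0.209 to 0.001), Sall4 (-0.021 to 0.4), Dppa4 (-0.828 to 0.134) and Dppa2 (-0.339 to 0.949) from day 0 to day 3. The background difference of Utf1 ranged from -0.206 to 0.037.

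Without the line 19 day 2 sample the turned values were Pou5f1 -0.044, Utf1 -0.291 and Rif1 0.162 between genotypes on day 2, Utf1 -0.546 in the first knockout step, Dppa2 -0.134 and Rif1 -0.076 for the change from day 2 to day 3, Utf1 0.032 for background, and Utf1 0.091, Dppa4 0.01 and Rif1 -0.091 for genotype by background. In HM1-derived lines only they were Dppa2 -0.315 on day 3, Rif1 0.024 in the first control step, and Dppa2 -0.014, -0.429 and -0.444 for the changes from day 0 to day 2, day 2 to day 3 and day 0 to day 3. By library size alone they were Rif1 0.079 in the first control step, Sall4 0.049 for the change from day 2 to day 3, and Utf1 0.01 and Dppa4 0.024 for genotype by background. With no low-count filter Sox2 was -0.006 in the second control step and Utf1 -0.001 in the first knockout step; limma-voom gave Utf1 -0.089 there and Dppa2 -0.126 for the change from day 2 to day 3, which was -0.012 with transcripts summed.

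With the line series as a replicate block the paired counts were 3 and 4 in the control steps and 3 and 6 in the knockout steps (fixed term), and 3, 5, 3 and 6 with a random term, whose correlation was 0.009. The random block called 0, 1 and 1 genes on days 0, 2 and 3 between genotypes; the day 3 gene was Utf1 (-1.989, adjusted p = 0.036, limma-voom). The fixed block ended the call of Sall4 in the second control step (-0.424, adjusted p = 0.066, edgeR), and either block added Dppa2 in the second knockout step (-1.088 fixed, -1.141 random; adjusted p = 0.03 and 0.033). Utf1 in the first knockout step was -0.003 and -0.089 under these blocks, and the change of Dppa2 from day 2 to day 3 was -0.085 and -0.126. No other call of the 7 genes changed under the block. Depth did not set a floor here, since the lowest member value was Utf1 at 3.02 CPM.
The correlations without the line 19 day 2 sample were added after seeing the data.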
